A study of Mus musculus with 21 samples.

Results

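The genes described here encode 10 heat shock chaperones, chosen by symbol as Hspa1a, Hspa1b, Hspa8, Hsp90aa1, Hsph1, Dnaja1, Dnajb1, Hspb1, Hspd1 and Hspe1. All 10 had a row in every library of lung epithelial cells and lung fibroblasts, out of 25035 genes listed in the tables of either cell type, and all 10 were above the filter on low values in every fit. The working name for the set is cytosolic chaperones, but Hspd1 and Hspe1 encode the chaperonin and co-chaperonin of the mitochondrial matrix, so the name holds for the other 8.

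Chaperones bind proteins that are newly made or have lost their fold, keep them from clumping and help them fold. In the HSP70 cycle a J-domain protein delivers the client, and HSP70 grips it as ATP is split. HSP110 proteins such as Hsph1 then release the spent nucleotide, so that new ATP can bind and the client is let go. HSP90 acts later on partly folded clients, and small heat shock proteins hold unfolded ones. Heat and other stresses raise transcription of the inducible members through heat shock factors, which bind repeats of the short unit NGAAN in their promoters.

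The libraries came from lungs of C57BL/6 mice that carry a Col1a2-GFP transgene, a green fluorescent reporter driven by a collagen gene's promoter, and covered the approach to birth and growth to adulthood. Epithelial cells were negative for the lineage markers CD31, CD45, Ter119 and CD146, positive for Epcam and negative for GFP (at E18.5 the label of the epithelial samples leaves the GFP gate unnamed), with 2 libraries at each of embryonic day 18.5 (E18.5) and postnatal days 0.5, 2, 7 and 28 (P0.5, P2, P7 and P28). Fibroblasts were lineage-negative, Epcam-negative and GFP-positive, with 2 libraries at each of the same 5 stages and 1 at P56, so cells without reporter activity were not sampled. All lungs were digested enzymatically for 60 min at 37 °C before sorting, and levels before digestion were not measured. Replicates carry numbers and no animal names, so the p-values rest on how far these samples scatter, which may be a technical spread.

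RNA was read as 3'SAGE-seq, in which a short tag from close to a transcript's 3' end stands for that transcript, and the deposited value of a gene is its tag count divided by a factor for its library, called a value unit here. Recovered depth was 2146071 to 5729829 reads per library, and the members were read between 25 times (Hsph1 in an epithelial library) and 80292 times (Hspb1 in a fibroblast library). Values of different genes are not compared as levels here. In the epithelial libraries all 8 markers of the epithelial list were above 0, and the summed value of that list was 23813 to 40052. In the fibroblast libraries all 6 fibroblast markers were above 0, while Epcam was at 0 in 9 of 11 libraries and Cdh1 at 0 in 10 of 11. The rest of the epithelial list was not absent there. Sftpc, Sftpb and Cldn18 were above 0 in all 11 fibroblast libraries, with Cldn18 at up to 126 value units. Krt8, Krt18 and Nkx2-1 were above 0 in most of them. The summed value of the epithelial list was at most 152 in fibroblast libraries. In sorted bulk samples, fewer cells of a type and less RNA per cell cannot be told apart.

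Several members have heat shock element motifs in front of their start. The promoters of the inducible HSP70 pair and of Hspb1, which all fell over birth in the epithelium, are shown with these motifs in capitals. So is an element that lies before the Hspe1 start and before the inner of the Hspd1 starts, inside the annotated Hspd1 gene. The motif searched was a pair of inverted units, GAANNTTC or TTCNNGAA, each of which reads the same on both strands, in the 250 bases before each RefSeq start (build GRCm38.p6). The sequences run 5′ to 3′ on the gene's own strand. The windows are chr17:34972157-34972406 (minus) for Hspa1a, chr17:34959239-34959488 (minus) for Hspa1b and chr5:135887669-135887918 (plus) for Hspb1. For the head-to-head pair Hspe1 and Hspd1 only 30 bases around the element are given, at chr1:55088053-55088082 (plus), starting 6 bases before the motif.
Hspa1a: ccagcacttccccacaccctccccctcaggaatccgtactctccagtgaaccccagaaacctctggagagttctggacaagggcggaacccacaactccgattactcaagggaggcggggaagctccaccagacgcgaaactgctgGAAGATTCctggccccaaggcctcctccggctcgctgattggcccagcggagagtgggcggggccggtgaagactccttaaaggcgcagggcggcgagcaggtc
Hspa1b: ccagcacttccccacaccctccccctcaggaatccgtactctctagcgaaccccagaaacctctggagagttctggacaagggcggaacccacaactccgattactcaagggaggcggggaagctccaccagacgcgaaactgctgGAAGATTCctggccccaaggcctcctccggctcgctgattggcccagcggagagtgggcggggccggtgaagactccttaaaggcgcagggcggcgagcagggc
Hspb1: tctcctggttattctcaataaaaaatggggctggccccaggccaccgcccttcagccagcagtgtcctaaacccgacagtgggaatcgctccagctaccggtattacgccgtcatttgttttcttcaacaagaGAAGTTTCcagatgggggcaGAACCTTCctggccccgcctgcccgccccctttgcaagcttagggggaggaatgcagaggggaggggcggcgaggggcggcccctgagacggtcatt
Hspe1/Hspd1: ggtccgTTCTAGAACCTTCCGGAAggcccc

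The Hspa1a and Hspa1b windows were identical at 247 of 250 bases, and in both the motif began 104 bases before the start. Hspb1 had 2 copies, beginning 117 and 97 bases before its start. The Hspe1 element began 89 bases before the Hspe1 start and was longer, an unbroken run of alternating units over 18 bases. It holds overlapping copies of both 3-unit forms, TTCNNGAANNTTC and GAANNTTCNNGAA. The 8 members with an entry in the promoter table have 13 starts between them, of which 8, in 7 genes, had a 2-unit motif, against 12.8% of 32851 mouse starts. These 8 starts are not independent, so their number overstates the contrast with all starts. The Hspa1a and Hspa1b windows are near copies, both Hsph1 windows hold the same motif, and Hspe1 and Hspd1 share theirs. A 3-unit motif was in 2 of the 13, against 0.466% of all starts, and both are the 1 element that Hspe1 and Hspd1 share. Dnajb1 had no match in its windows, the outer Hspd1 start had none in its own, and Hspa8 and Hsp90aa1 had no entry. A match describes letters and not binding. Over birth in the epithelium Hspa1a, Hspa1b, Hspb1 and Hsph1 had a match and were called lower. Dnajb1 was called lower without a match, and Dnaja1, Hspd1 and Hspe1 had a match and were not called. Any link between a match and a change was not tested.

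Hspa1a (chr17:34969190-34972156, minus strand, GRCm38) and Hspa1b (chr17:34956436-34959238, minus strand) are the stress-inducible HSP70 genes, 9951 bp apart and 99.4% identical in coding sequence. None of the 25-base words in the last 500 bases of either transcript occurred in the other. Tags from close to the 3' end may fall in that part, but tag positions were not located. How the authors assigned tags shared by both genes is not given. In the epithelium, Hspa1a had 4937 and 5351 value units at E18.5, 1086 and 744 at P0.5, 2202 and 2279 at P2, 5754 and 2486 at P7, and 9982 and 6192 at P28. Both P0.5 libraries lay below all other epithelial libraries and both P28 libraries above them, while the P7 libraries spanned the E18.5 ones and differed from each other by more than any other pair except P28. Epithelial Hspa1b had 4212 and 4545 value units at E18.5, 932 and 778 at P0.5, 1962 and 1915 at P2, 4955 and 2041 at P7, and 8377 and 5375 at P28, with the same order of stage means. The ratio of the highest to the lowest of the 5 stage means was 8.84 for Hspa1a and 8.04 for Hspa1b.

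In fibroblasts the 2 genes had another order. Hspa1a had 11479.9 and 6154 value units at E18.5, 2857 and 2139.9 at P0.5, 5551 and 5344 at P2, 6109 and 3102 at P7, 8392 and 8582 at P28, and 4324 in the P56 library. The P0.5 libraries were again the lowest, but the stage with the highest mean was E18.5, whose 2 libraries lay on either side of the P28 pair. Hspa1b had 9536 and 5405 value units at E18.5, 2456 and 2370.1 at P0.5, 4759 and 4732 at P2, 5372 and 2609 at P7, 7206 and 7526 at P28, and 3789 at P56. The ratio of Hspa1a to Hspa1b stayed between 0.956 and 1.22 in the 10 epithelial libraries and between 0.903 and 1.204 in the 11 fibroblast libraries.

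Hspb1 (chr5:135887919-135889563, plus strand) encodes the small heat shock protein HSP25, the mouse counterpart of human HSP27, which holds unfolded proteins and binds actin. In the epithelium it had 5848 and 5622 value units at E18.5, 1787 and 1663 at P0.5, 2486 and 2770.2 at P2, 4369 and 2872 at P7, and 10839 and 7299.9 at P28. The order of stages was that of Hspa1a, with P0.5 lowest, P28 highest and no overlap between neighbouring stages in that order. In fibroblasts Hspb1 had 15344 and 11191 value units at E18.5, 10346 and 10987 at P0.5, 8775 and 9148 at P2, 8704 and 7346 at P7, 18526 and 18397 at P28, and 10779.6 at P56. There the lowest pair was P7 and the P0.5 pair lay just below the E18.5 pair, without overlap.

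Hspa8 (chr9:40800984-40810087, plus strand) encodes HSC70, the constitutive HSP70 of unstressed cells. In the epithelium it had 1109 and 1177 value units at E18.5, 727 and 629.8 at P0.5, 1150.0 and 1175 at P2, 2324 and 1431 at P7, and 2774 and 2531 at P28. Both P28 libraries were above, and both P0.5 libraries below, all others. In fibroblasts it had 1069 and 868 value units at E18.5, 845 and 758 at P0.5, 1683 and 1628 at P2, 1865 and 1241 at P7, 2559 and 2285 at P28, and 650.2 at P56, the lowest of all 11. Hsph1 (chr5:149614287-149636376, minus strand), the HSP110 exchange factor, had 35.4 and 35.3 value units at E18.5 in the epithelium, 9.55 and 8.48 at P0.5, 11.4 and 21.1 at P2, 54.5 and 21.3 at P7, and 96.9 and 87.9 at P28. Its ratio of highest to lowest stage mean, 10.2, was the widest of the 10 members in either cell type over the 5 shared stages. In fibroblasts Hsph1 had 85.7 and 36.7 value units at E18.5, 37.4 and 50.2 at P0.5, 94.6 and 93.5 at P2, 57.2 and 68.1 at P7, 146 and 140.4 at P28, and 23.2 at P56, so P28 was again the highest pair and the ratio of stage means was 3.26.

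Among the J-domain partners of HSP70, Dnaja1 (chr4:40722150-40737149, plus strand), a type I J protein, had epithelial stage means in the order of age. It had 65.5 and 86.2 value units at E18.5, 94.7 and 82.3 at P0.5, 115 and 144 at P2, 195 and 174 at P7, and 325 and 317 at P28, and E18.5 and P0.5 were its only neighbouring stages to overlap. In fibroblasts Dnaja1 had 178 and 84.0 value units at E18.5, 169 and 127 at P0.5, 159 and 193 at P2, 303 and 246 at P7, 309 and 326 at P28, and 77.3 at P56, and its P7 and P28 libraries lay above all others. Dnajb1 (chr8:83608193-83612653, plus strand), the stress-inducible HSP40, had 47.0 and 40.7 value units at E18.5 in the epithelium, 20.2 and 26.0 at P0.5, 16.9 and 17.5 at P2, 23.7 and 18.5 at P7, and 66.4 and 46.1 at P28, so its ends were high and the 3 stages between them low. Fibroblast Dnajb1 had its lowest stage mean at E18.5, with 29.8 and 20.9 value units at E18.5, and had 30.2 and 47.9 at P0.5, 50.8 and 28.8 at P2, 46.7 and 35.1 at P7, 59.7 and 76.6 at P28, and 39.3 at P56, with the P28 pair above all others. Hsp90aa1 (chr12:110690605-110702728, minus strand), the inducible cytosolic HSP90, had 198 to 274 value units in the epithelial E18.5 and P0.5 libraries, 306 to 474 at P2 and P7, and 639.9 and 659 at P28. In fibroblasts Hsp90aa1 had 232 and 117 value units at E18.5, 188 and 204 at P0.5, 389.6 and 420.1 at P2, 352 and 215 at P7, 394 and 343 at P28, and 72.6 at P56, so the P28 range overlapped both that of P2 and that of P7, while the P7 pair lay below the P2 pair.

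Hspd1 (chr1:55077835-55088243, minus strand) and Hspe1 (chr1:55088132-55091307, plus strand) encode HSP60 and HSP10, which together form the folding chamber of the mitochondrial matrix, and their annotated ends overlap by 112 bp. Epithelial Hspd1 ranged from 39.7 to 85.7 value units over the 8 libraries of E18.5 to P7, with ranges that overlapped between stages, and had 126 and 107 at P28. Epithelial Hspe1 had 16.5 to 39.2 value units at E18.5, P0.5 and P2, 78.1 and 34.4 at P7, and 94.2 and 87.6 at P28, the highest pair. In fibroblasts Hspd1 had 114 and 74.6 value units at E18.5, 98.5 and 77.5 at P0.5, 166 and 187 at P2, 116 and 79.3 at P7, 169.5 and 125 at P28, and 23.9 at P56. The highest fibroblast mean of Hspd1 was that of P2, which overlapped P28. Fibroblast Hspe1 ranged from 30.3 to 145 value units at E18.5 to P28, with every neighbouring pair of these 5 stages overlapping, and had 23.0 at P56. The annotation names 5 pseudogenes of Hspd1, 6 of Hspe1 and 1 of Dnaja1, none of which has a row in the tables, so the values of these 3 genes are uncertain to the extent that tags are shared with such copies.

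**Figure D1:**
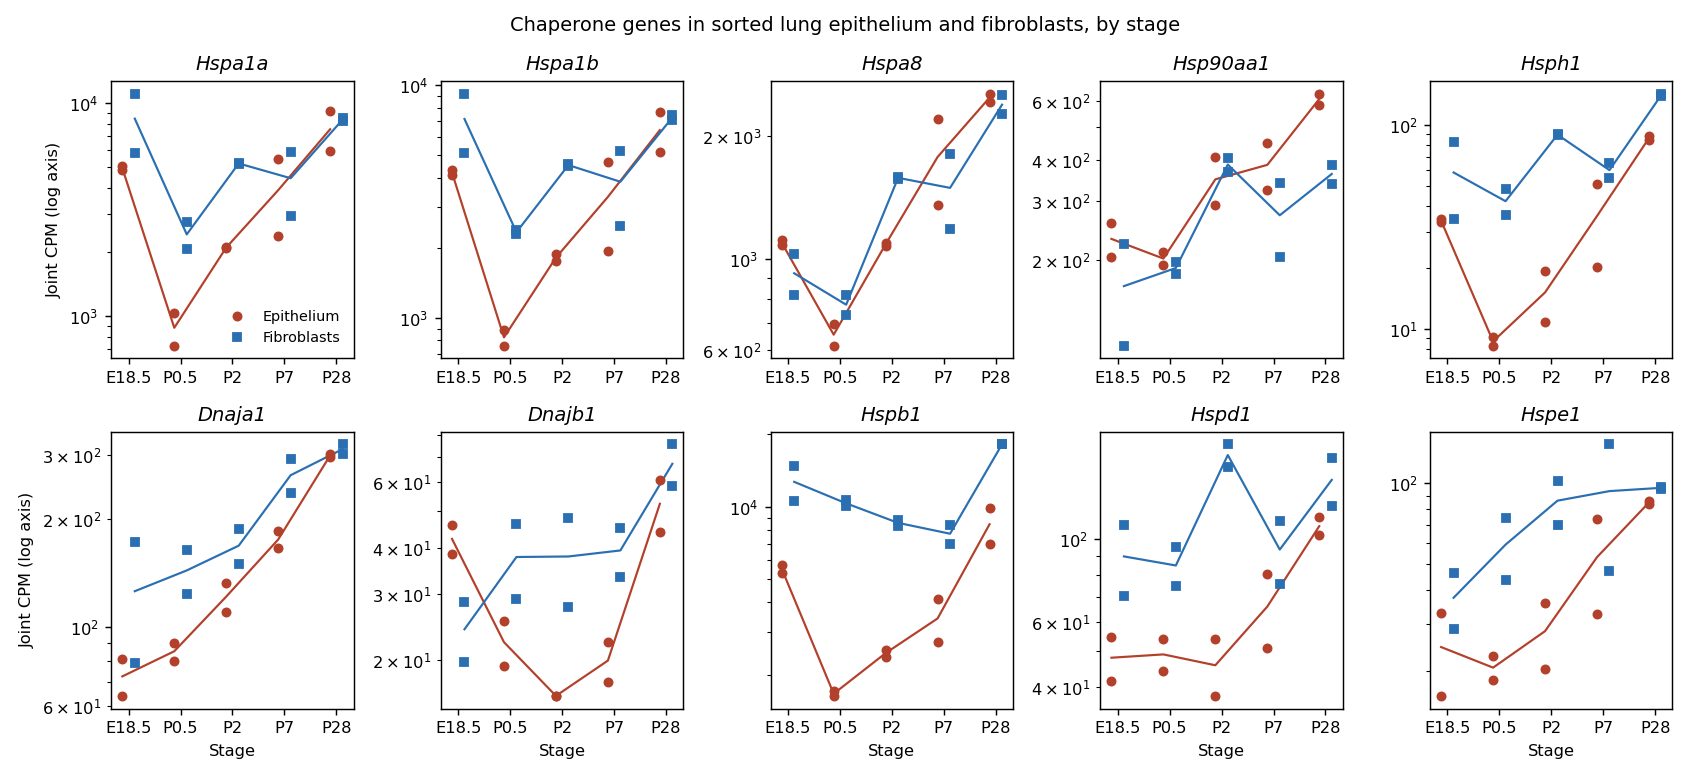
Each panel plots 1 chaperone gene by stage, with epithelial libraries as red circles and fibroblast libraries as blue squares, in joint CPM (reads scaled together to 1000000 per library) on a log axis; lines join stage means. The epithelial points of Hspa1a, Hspa1b, Hspb1 and Hsph1 dip at P0.5, and fibroblast Hspb1 lies above epithelial Hspb1 at every stage.

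The first comparison asked what changed over birth, from E18.5 to P0.5. In the epithelium 6 of the 10 members fell and none rose, against 14.3% of all genes tested called in either direction and 7.09% called lower. The inducible HSP70 pair had the largest falls, with log2 fold changes (of value plus 1) of -2.51 for Hspa1a (SE 0.33, limma adjusted p = 0.000356) and -2.36 for Hspa1b (SE 0.32, limma adjusted p = 0.000462). Hspb1 fell by 1.73 (SE 0.23, limma adjusted p = 0.000428) and Hsph1 fell by 1.86 (SE 0.37, limma adjusted p = 0.00492). Smaller falls were called for Dnajb1, with a log2 fold change of -0.90 (SE 0.26, limma adjusted p = 0.0322), and Hspa8, with -0.75 (SE 0.21, limma adjusted p = 0.0263). Hsp90aa1, Dnaja1, Hspd1 and Hspe1 did not pass, with log2 fold changes between -0.19 and 0.23. The median over the members was -0.83, beside -0.02 over all genes tested. Leaving out 1 library left 4 calls without E18.5 replicate 1, E18.5 replicate 2 or P0.5 replicate 1, and 3 without P0.5 replicate 2: Hspa8 (adjusted p 0.0697 to 0.168) and Dnajb1 (0.068 to 0.215) passed in none of these fits, and Hsph1 did not pass in the last (0.0508). With no filter on low values Hspa8 (0.0755) and Dnajb1 (0.0561) did not pass either.

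Over the same step in fibroblasts 2 of 10 members fell, against 15.4% of all genes called and 7.34% called lower. They were Hspa1a, with a log2 fold change of -1.76 (SE 0.29, limma adjusted p = 0.000358), and Hspa1b, with -1.57 (SE 0.28, limma adjusted p = 0.000753). Hspb1 had -0.30 (SE 0.21, limma adjusted p = 0.366) and Dnajb1 was higher by 0.59 without passing (limma adjusted p = 0.21). Dnaja1 was also called, as higher, without E18.5 replicate 1, which was above replicate 2 for all 10 members, and Hsph1, as lower, without E18.5 replicate 2, giving 3 calls each time. With no filter on low values neither gene passed (adjusted p 0.0576 for Hspa1a and 0.0691 for Hspa1b).

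The difference between the cell types over birth was tested as an interaction. It passed for Hspb1 alone of the 10, against 3.53% of all genes called and 1.97% called lower: its change was more negative in the epithelium by 1.45 on the log2 scale (interaction -1.45, SE 0.29, limma adjusted p = 0.00863). Dnajb1 (interaction -1.50, SE 0.42, limma adjusted p = 0.0520) and Hsph1 (-1.50, SE 0.52, limma adjusted p = 0.116) had estimates as large with wider errors. Without fibroblast E18.5 replicate 2 the Hspb1 interaction was -1.21 and missed the threshold (adjusted p = 0.0565), leaving no call, and without fibroblast E18.5 replicate 1 Hsph1 and Dnajb1 passed as well, giving 3 calls. Without fibroblast P0.5 replicate 1 Dnajb1 passed beside Hspb1, giving 2. For Hspa1a and Hspa1b, which fell in both cell types, no difference between them was called, and a p that misses the threshold does not show that the changes were alike.

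**Figure D2:**
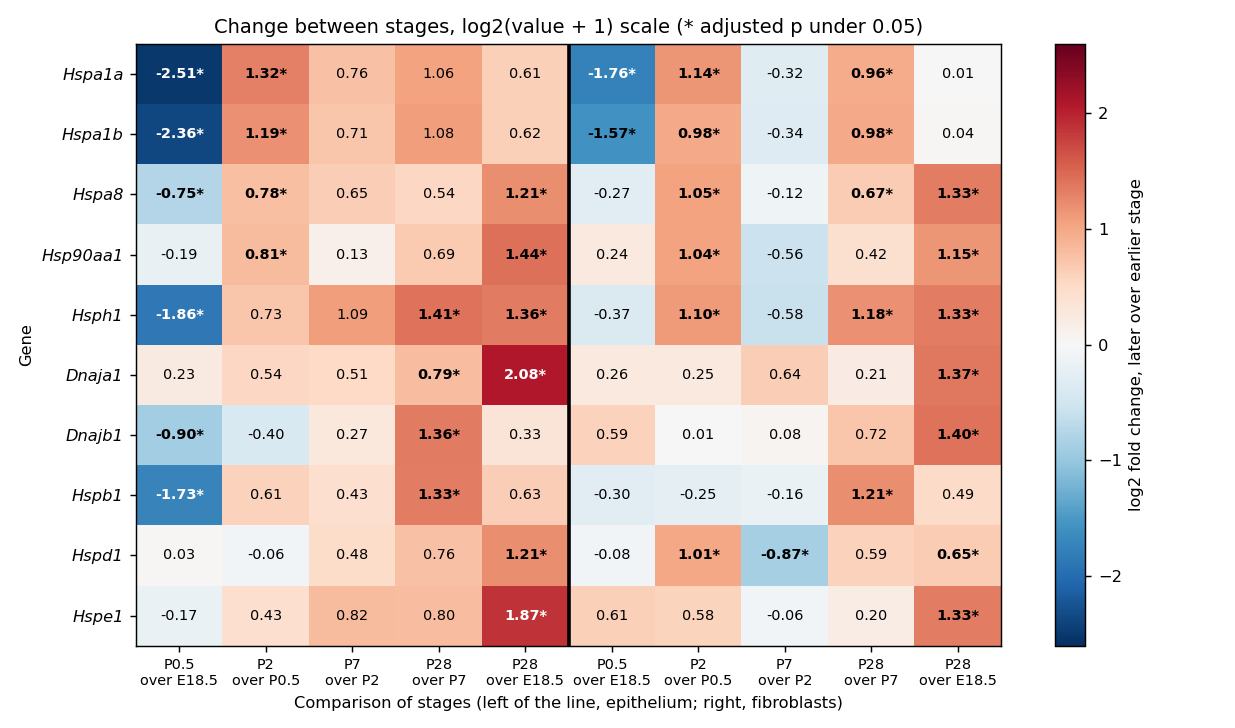
Log2 fold change of each chaperone for each pair of stages, epithelium on the left and fibroblasts on the right, with red for higher and blue for lower in the later stage and a star where the limma adjusted p is under 0.05. The epithelial P0.5 over E18.5 column holds 6 stars, all on blue cells, and the same column in fibroblasts holds 2, for Hspa1a and Hspa1b.

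The next step compared P2 with P0.5. In the epithelium 4 of 10 members rose, against 8.82% of all genes called and 5.13% called higher. The epithelial log2 fold changes were 1.32 for Hspa1a (SE 0.33, limma adjusted p = 0.0252), 1.19 for Hspa1b (SE 0.32, limma adjusted p = 0.0340), 0.81 for Hsp90aa1 (SE 0.22, limma adjusted p = 0.0339) and 0.78 for Hspa8 (SE 0.21, limma adjusted p = 0.0333). None of the 4 passed when either P0.5 library or P2 replicate 2 was left out (adjusted p 0.0622 to 0.210), and Hsp90aa1 alone passed without P2 replicate 1. None of the 4 passed with no filter on low values (0.0851 to 0.1102). DESeq2 did not call epithelial Hspa1b (0.061). In fibroblasts 6 of 10 rose, against 16.9% called and 9.74% called higher, namely Hspa1a (log2 fold change 1.14, SE 0.29), Hsph1 (1.10, SE 0.29), Hspa8 (1.05, SE 0.20), Hsp90aa1 (1.04, SE 0.26), Hspd1 (1.01, SE 0.25) and Hspa1b (0.98, SE 0.28), with limma adjusted p of 0.00117 (Hspa8) to 0.0208 (Hspa1b). Of the fibroblast calls Hspa8 passed in all 4 fits that left out 1 library, while the count was 3 without P0.5 replicate 1, 2 without P0.5 replicate 2, 3 without P2 replicate 1 and 1 without P2 replicate 2. DESeq2 called neither fibroblast Hspa1a (0.0616) nor Hspa1b (0.0971), and with no filter on low values Hspa8 alone passed. No interaction between cell type and this step was called for the members, against 5.24% of all genes, with 2 members at an unadjusted p under 0.05 in limma.

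P7 was then compared with P2. In the epithelium limma called none of the 10, against 3.71% of all genes, although all 10 estimates were positive (0.13 to 1.09) and 5 had an unadjusted p under 0.05, and edgeR and DESeq2 each called 1, Hspa8. The 2 epithelial P7 libraries disagreed: without P7 replicate 2, the lower one, 4 members passed (Hspa1a, Hspa1b, Hspa8 and Hsph1). In fibroblasts 1 of 10 fell, against 6.64% of all genes called and 4.28% called lower, the mitochondrial chaperonin Hspd1 (log2 fold change -0.87, SE 0.25, limma adjusted p = 0.0394). That call was lost when either P2 library or P7 replicate 2 was left out (adjusted p 0.145 to 0.284) and with no filter on low values (0.227). The interaction was called for none of the members, against 1.61% of all genes, with 5 at an unadjusted p under 0.05.

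At P28 all 10 estimates were above those of P7 in both cell types. In the epithelium 4 of 10 rose, against 7.28% of all genes called and 4.87% called higher: Hspb1 by a log2 fold change of 1.33 (SE 0.23, limma adjusted p = 0.00200), Dnajb1 by 1.36 (SE 0.26, limma adjusted p = 0.00406), Hsph1 by 1.41 (SE 0.37, limma adjusted p = 0.0312) and Dnaja1 by 0.79 (SE 0.19, limma adjusted p = 0.0210). Hspa1a (1.06, limma adjusted p = 0.0699) and Hspa1b (1.08, limma adjusted p = 0.0566) did not pass in limma but did in edgeR (0.0462 and 0.0419), Hspa1b also with TMM scaling (0.0488) and with a pseudocount of 5 (0.0464). Hsp90aa1 passed in DESeq2 (0.0215), and Hsph1 did not with no filter on low values (0.0818). The epithelial count was 6 without P7 replicate 1, where Hspa1a, Hspa1b and Hspa8 passed and Dnaja1 did not (0.0706), 1 without P7 replicate 2 or P28 replicate 1, and 2 without P28 replicate 2, and Hspb1 passed in all 4. In fibroblasts 5 of 10 rose, against 20.8% called and 11.3% called higher, namely Hspb1 (log2 fold change 1.21, SE 0.21, limma adjusted p = 0.000299), Hsph1 (1.18, SE 0.29), Hspa1b (0.98, SE 0.28), Hspa1a (0.96, SE 0.29) and Hspa8 (0.67, SE 0.20). Without fibroblast P7 replicate 2, 2 calls were left, and Hspa1a, Hspa1b and Hspa8 had log2 fold changes of 0.47, 0.45 and 0.37. DESeq2 called 3 in fibroblasts, without Hspa1a (0.121) and Hspa1b (0.0938), and with no filter on low values Hspb1 alone passed. The fibroblast count was 4 without P7 replicate 1, 1 without P28 replicate 1 and 3 without P28 replicate 2. The interaction was called for none, against 8.59% of all genes, with none at an unadjusted p under 0.05.

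The whole course was read as P28 over E18.5. In the epithelium 6 of 10 were higher at P28 than at E18.5 and none lower, against 24.9% of all genes called and 13.5% called higher. Dnaja1 had the largest change, a log2 fold change of 2.08 (SE 0.19, limma adjusted p = 4.6e-06), followed by Hspe1 with 1.87 (SE 0.40, limma adjusted p = 0.00325), Hsp90aa1 with 1.44 (SE 0.22, limma adjusted p = 0.000263) and Hsph1 with 1.36 (SE 0.37, limma adjusted p = 0.0149). Hspa8 and Hspd1 both had 1.21 (SE 0.21 and 0.27, limma adjusted p = 0.000687 and 0.00416). Of the 6 genes that fell over birth, 4 did not pass over the whole course: Hspa1a had 0.61 (SE 0.33), Hspa1b 0.62 (SE 0.32), Hspb1 0.63 (SE 0.23) and Dnajb1 0.33 (SE 0.26), with limma adjusted p of 0.0595 to 0.393. Hspb1 passed in edgeR (0.0283) and DESeq2 (0.0175) and without P28 replicate 2, and Hsph1 missed the threshold whichever library was left out (0.0536 to 0.0776).

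In fibroblasts 7 of 10 members were higher at P28 than at E18.5 and none lower, against 33.6% of all genes called and 18.7% called higher. The log2 fold changes were 1.40 for Dnajb1 (SE 0.30, limma adjusted p = 0.00142), 1.37 for Dnaja1 (SE 0.26, limma adjusted p = 0.000534), 1.33 for Hspa8 (SE 0.20, limma adjusted p = 3.5e-05), Hsph1 (SE 0.29) and Hspe1 (SE 0.37), 1.15 for Hsp90aa1 (SE 0.26) and 0.65 for Hspd1 (SE 0.25). Hspa1a was at 0.01 (SE 0.29, limma adjusted p = 0.979) and Hspa1b at 0.04 (SE 0.28, limma adjusted p = 0.934), and Hspb1 at 0.49 (SE 0.21) missed in limma (0.0731) and passed in edgeR (0.0290) and DESeq2 (0.0192). Hspd1 sat at the edge in limma (0.0486) and missed in edgeR (0.0552) and DESeq2 (0.0524), and Hspe1 missed in DESeq2 (0.0718). Without fibroblast E18.5 replicate 2, the lower library, 3 calls were left, Hspa8, Dnaja1 and Dnajb1, while Hsp90aa1 was at 0.66, Hsph1 at 0.73, Hspd1 at 0.35 and Hspe1 at 1.004. The same 3 were left with no filter on low values. The count was 8 without E18.5 replicate 1, with Hspb1 added, 5 without P28 replicate 1 and 6 without P28 replicate 2. The interaction of cell type with this course was called for none of the members in limma, edgeR or DESeq2, against 15.1% of all genes in limma, with 1 member at an unadjusted p under 0.05 (Dnajb1, interaction -1.15, SE 0.42, limma adjusted p = 0.0724), and leaving out fibroblast E18.5 replicate 2 called 1, Dnaja1.

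The single fibroblast library at P56 stood apart. Its adjusted p-values assume that it varies like the replicated groups, which 1 library cannot show, so they describe this library and not the stage. Set against P28, 9 of 10 members were called lower, against 31.2% of all genes called and 19.1% called lower, with a median over the members of -1.96 beside -0.12 over all genes. The largest differences were those of Hsph1 (log2 fold change -2.57, SE 0.36) and Hspd1 (-2.56, SE 0.30), followed by Hsp90aa1 (-2.32, SE 0.32), Hspe1 (-2.05, SE 0.45), Dnaja1 (-2.02, SE 0.32) and Hspa8 (-1.89, SE 0.24), with limma adjusted p of 4.9e-06 (Hspd1) to 0.00201 (Hspe1). Hspa1a (-0.97), Hspa1b (-0.96) and Hspb1 (-0.78) passed more narrowly, at limma adjusted p of 0.0252 to 0.0424, and Dnajb1 did not (-0.77, limma adjusted p = 0.127). With TMM scaling 6 members were called lower and with edgeR 7, both chosen after seeing the data. The P56 library also had the smallest value sum, 769260, and its fibroblast markers summed to 10052 value units against 28461 and 32624 at P28. Its immediate early gene Jun had 7376 value units against 595 and 644 at P28. What sets this 1 library apart and its stage cannot be told apart. Over the stage comparisons between replicated groups, the mean over stages, and the interactions over birth and the whole course, 51 calls were made. Of these 51 calls, 28 held when no filter on low values was applied.

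Between the cell types, most members were lower in the epithelium. Averaged over the 5 shared stages, 8 of 10 were lower in epithelium than in fibroblasts and 1 higher, in a comparison where 62.4% of all genes were called, 29.9% as lower and 32.5% as higher. Hspb1 differed most, averaging 4301 ± 2683 joint CPM in epithelium and 11482 ± 4087 in fibroblasts (SD over 10 libraries each, stages included), a log2 difference of -1.59 (SE 0.09, limma adjusted p = 1.7e-12). Hsph1 averaged 36.0 ± 29.8 joint CPM in epithelium and 78.3 ± 38.5 in fibroblasts, a log2 difference of -1.38 (SE 0.16, limma adjusted p = 1.9e-07). The mitochondrial pair followed, Hspe1 with -0.91 (SE 0.20) and Hspd1 with -0.89 (SE 0.12), then Hspa1b with -0.80 (SE 0.15), Hspa1a with -0.78 (SE 0.15), Dnaja1 with -0.50 (SE 0.12) and Dnajb1 with -0.47 (SE 0.13). Hsp90aa1 alone was higher in epithelium, by 0.35 (SE 0.12, limma adjusted p = 0.0163), and Hspa8 averaged 1419 ± 703 joint CPM in epithelium and 1431 ± 622 in fibroblasts, a difference of -0.04 (SE 0.09, limma adjusted p = 0.692). The same count of 9 calls was obtained in each of the 20 fits that left out 1 library.

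By stage, most members were called lower in epithelium at P0.5 and P2. Each by-stage call rests on 2 libraries per cell type at its stage. These calls come from limma alone and were not repeated with other tests or with a library left out. At E18.5, 3 of 10 members were lower in epithelium and 1 higher, where 38.2% of all genes were called, 16.9% as lower and 21.3% as higher. At P0.5, 7 were lower and none higher, where 41.0% of all genes were called and 19.0% as lower. At P2 it was 8 and none, where again 41.0% were called and 19.4% as lower. At P7, 2 were lower (35.5% of all genes called, 15.8% as lower), and at P28 1 was lower and 1 higher (38.1% called, 18.5% as lower and 19.5% as higher). Hspb1 was lower in epithelium at every stage, with 1704 and 1627 joint CPM in epithelium against 10018 and 10611 in fibroblasts at P0.5, and 9901 and 6986 in epithelium against 18153 and 18160.2 in fibroblasts at P28. Its log2 difference was -1.18 at E18.5, -2.63 at P0.5, -1.80 at P2, -1.19 at P7 and -1.13 at P28 (SE 0.21 each). Hsph1 stood at -2.15 (SE 0.36) at P0.5 and -2.54 (SE 0.36) at P2, where epithelial libraries had 10.9 and 19.4 joint CPM and fibroblast libraries 89.3 and 90.2, without overlap. Dnajb1 turned over, being higher in epithelium at E18.5 (46.0 and 38.5 joint CPM in epithelium, 28.7 and 19.8 in fibroblasts, log2 difference 0.80, SE 0.30, limma adjusted p = 0.0407) and lower at P2 (16.1 and 16.0 in epithelium, 48.0 and 27.8 in fibroblasts, -1.14, SE 0.30, limma adjusted p = 0.00408). Hsp90aa1 was higher in epithelium at P28, with 585 and 631 joint CPM in epithelium and 386 and 338 in fibroblasts (log2 difference 0.75, SE 0.27, limma adjusted p = 0.0341).

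**Figure D3:**
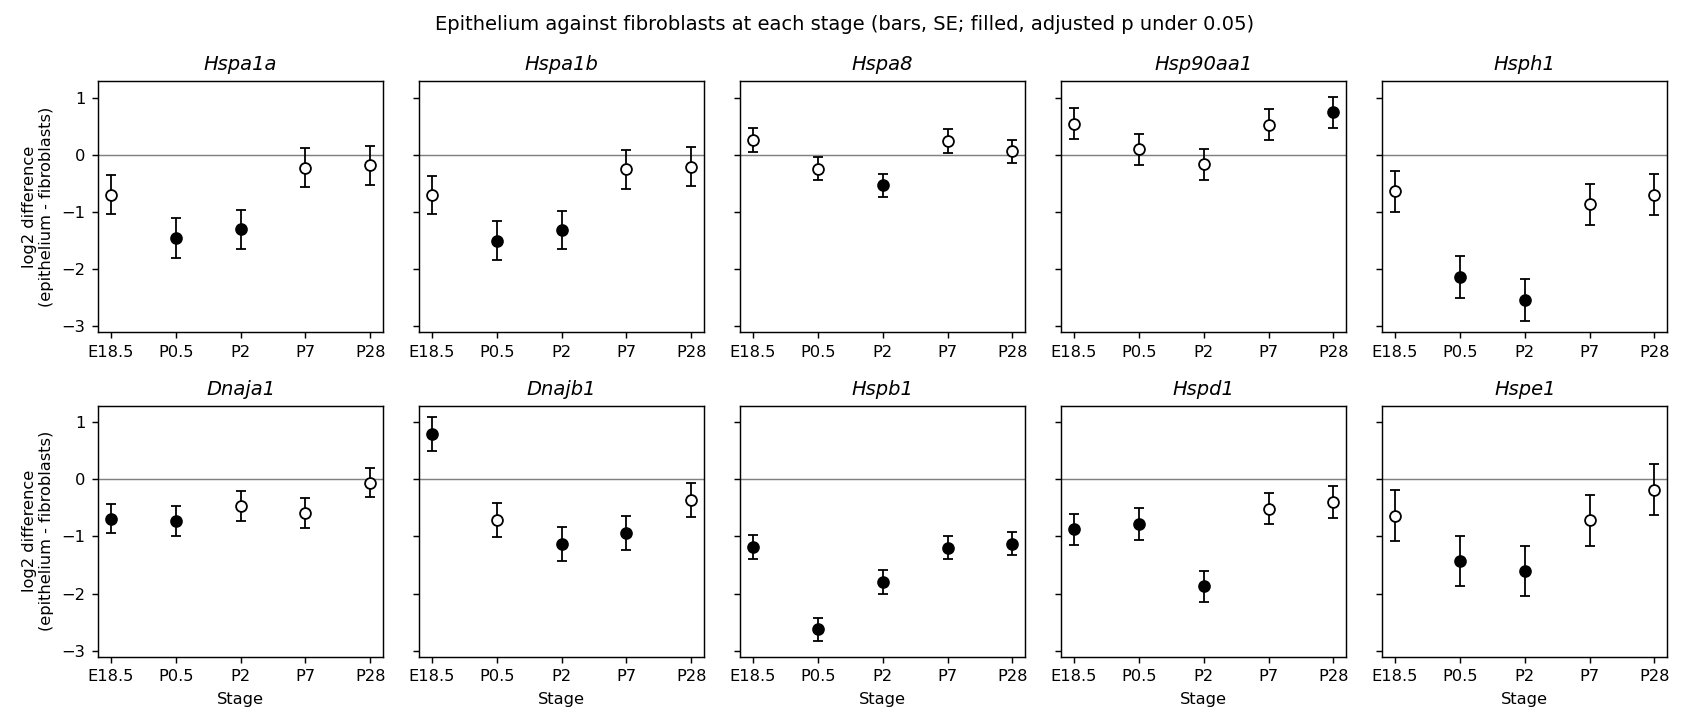
Log2 difference of epithelium minus fibroblasts for each chaperone at each shared stage, with bars of 1 SE and filled points where the limma adjusted p is under 0.05. Hspb1 is below 0 at all 5 stages and lowest at P0.5, at -2.63, while Dnajb1 is called above 0 at E18.5 and below 0 at P2.

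The members made up 0.399 to 3.09% of reads in the epithelial libraries and 1.63 to 3.66% in the fibroblast libraries. In the epithelium the lowest shares were those of the P0.5 pair, 0.438 and 0.399%, and the highest those of the P28 pair, 3.09 and 2.38%. Across the 10 epithelial libraries the 45 pairs of members had a median Pearson correlation of 0.81 on the log2 scale, between 0.27 (Dnaja1 with Dnajb1) and 0.998 (Hspa1a with Hspa1b). Across the 11 fibroblast libraries the median was 0.56, between 0.075 (Hspb1 with Hspe1) and 0.991 (Hspa1a with Hspa1b). These correlations describe values that share libraries, stages and scaling. By the same measure the genes most like Hsph1, the member with the widest range of epithelial stage means, were Ldha (0.944), Mdh1 (0.935), Scd1 (0.934), Stat6 (0.932) and Bhlhe40 (0.926) among 2538 genes ranked over 10 libraries. For Hspd1, the member with the widest range of fibroblast stage means once P56 is included, they were Fkbp2 (0.961), Rabep1 (0.953), Ipo7 (0.953), Oser1 (0.952) and Fam178a (0.942) among 2480 genes over 11 libraries.

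The rest of the chaperone network was followed by lists, counted over the whole course of P28 over E18.5, for which 24.9% of all genes were called in epithelium (13.5% higher) and 33.6% in fibroblasts (18.7% higher). With 2 to 11 genes a list, many counts lie near these shares and say nothing particular of the list. Of the heat shock factor genes, 2 of 4 tested were higher in the epithelium, Hsf4 (14.6 ± 5.57 value units at P28 and 2.72 ± 0.174 at E18.5, SD, n = 2 each) and Hsf2 (4.28 ± 1.69 at P28 and 0.96 ± 0.471 at E18.5, the second within the range of the 3-read floors of the epithelial libraries, 0.560 to 1.37 value units). In fibroblasts Hsf4 was higher (21.7 ± 3.1 at P28 and 2.33 ± 0.28 at E18.5) and Hsf1, the main stress-activated factor, was lower (22.7 ± 2.87 at P28 and 43.2 ± 1.07 at E18.5, limma adjusted p = 0.0151). Of the other HSP70 and HSP110 genes, none of 6 passed in the epithelium, where Hspa4 had a log2 fold change of -0.07 and Hspa2 of -0.16, while 2 of 6 were higher in fibroblasts, Hspa2 (1.24, SE 0.28) and Hspa4l (1.28, SE 0.31). Of the HSP70 cofactors, 1 of 9 was lower in the epithelium, Bag2 (-1.35, SE 0.47). In fibroblasts 1 of 8 cofactors was higher, Bag3 (864 ± 85.9 value units at P28 and 372 ± 62.7 at E18.5), which links HSP70 to small heat shock proteins, and 1 was lower, the ubiquitin ligase Stub1 (-0.84, SE 0.21).

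The lists that follow are counted over the same course, with 24.9% of all genes called in epithelium (13.5% higher) and 33.6% in fibroblasts (18.7% higher). Many of their counts also lie near these shares. Of the other J-domain genes, 2 of 8 were higher in the epithelium, Dnaja4 (log2 fold change 1.63, SE 0.28) and Dnajb4 (1.26, SE 0.25). In fibroblasts 3 of 9 were higher, led by Dnajb4 (72.3 ± 4.93 value units at P28 and 13.3 ± 9.78 at E18.5) and Dnaja2 (1.13, SE 0.25), and 1 was lower. Of the HSP90 partners, 2 of 11 were higher in the epithelium, Chordc1 (1.65, SE 0.54) and the p23 co-chaperone gene Ptges3 (0.95, SE 0.31), and in fibroblasts 4 of 11 were higher, with Ptges3 (1.26, SE 0.38) and the constitutive HSP90 gene Hsp90ab1 (0.62, SE 0.19) first by p, and 1 was lower. Of the other small heat shock genes, 1 of 2 was lower in the epithelium, Cryab, which encodes alpha-B-crystallin (1535 ± 202 value units at P28 and 3991 ± 168 at E18.5), and 1 of 4 was higher in fibroblasts, Hspb8 (1.11, SE 0.42). Of the 8 genes of the cytosolic chaperonin TRiC, 1 was lower in each cell type, Cct7 (-0.57, SE 0.17 in epithelium and -0.77, SE 0.18 in fibroblasts). Of the other mitochondrial chaperones and proteases, 2 of 9 were higher in the epithelium, Grpel2 (0.90, SE 0.19) and the mitochondrial HSP70 gene Hspa9 (0.64, SE 0.18), while in fibroblasts 1 of 8 was higher, Hspa9 (0.62, SE 0.19), and 2 were lower, with Clpp (-0.63, SE 0.20) first by p. The median log2 fold changes of these lists lay between -0.87 (small heat shock genes) and 0.71 (heat shock factors) in the epithelium and between -0.51 (mitochondrial) and 0.72 (HSP70 and HSP110) in fibroblasts, beside 1.21 and 1.24 for the 10 members. Over birth in the epithelium some list sums were also lower at P0.5 than at E18.5, without overlap. TRiC had 1840 to 1916 value units against 2660 to 2795, and the HSP90 partners 932 to 982 against 1374 to 1377. The other HSP70 and HSP110 genes had 592 to 620 against 772 to 997. The HSP70 cofactor and small heat shock sums were lower too, while the heat shock factor, J-domain and mitochondrial sums overlapped.

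Immediate early genes, transcription factors and regulators that are switched on within minutes of many stimuli, rose over birth in fibroblasts while the HSP70 pair fell. From E18.5 to P0.5, 20 of 24 rose in fibroblasts and none fell (median log2 fold change 1.37), while 2 of the 10 chaperones fell there. Of all genes in that comparison, 15.4% were called in either direction and 7.34% as lower. In the epithelium 6 of 24 rose and 1 fell over that step (median 0.27), while 6 chaperones fell. There 14.3% of all genes were called in either direction and 7.09% as lower. Fibroblast Fos had 8560 and 8976 value units at P0.5 against 3563 and 2935 at E18.5, and fibroblast Hspa1a 2857 and 2139.9 at P0.5 against 11479.9 and 6154 at E18.5, so the groups were apart in opposite directions. From P7 to P28, 18 of 24 immediate early genes rose in fibroblasts beside 5 chaperones, where 11.3% of all genes were called higher, and 3 of 24 in the epithelium beside 4 chaperones, where 4.87% were. Over the whole course, with the shares of all genes given above, 22 of 24 were higher in fibroblasts (median 1.57), with Klf4 at 2999.8 ± 398 value units at P28 and 232 ± 74.2 at E18.5 (SD, n = 2 each), and 10 of 24 were higher and 1 lower in the epithelium (median 0.60), with Egr1 at 462 ± 1.76 at P28 and 139 ± 11.3 at E18.5. In the P56 fibroblast library the list summed to 54081 value units against 28165 and 30396 at P28. The part of tissue handling in either set of genes was not tested.

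**Figure D4:**
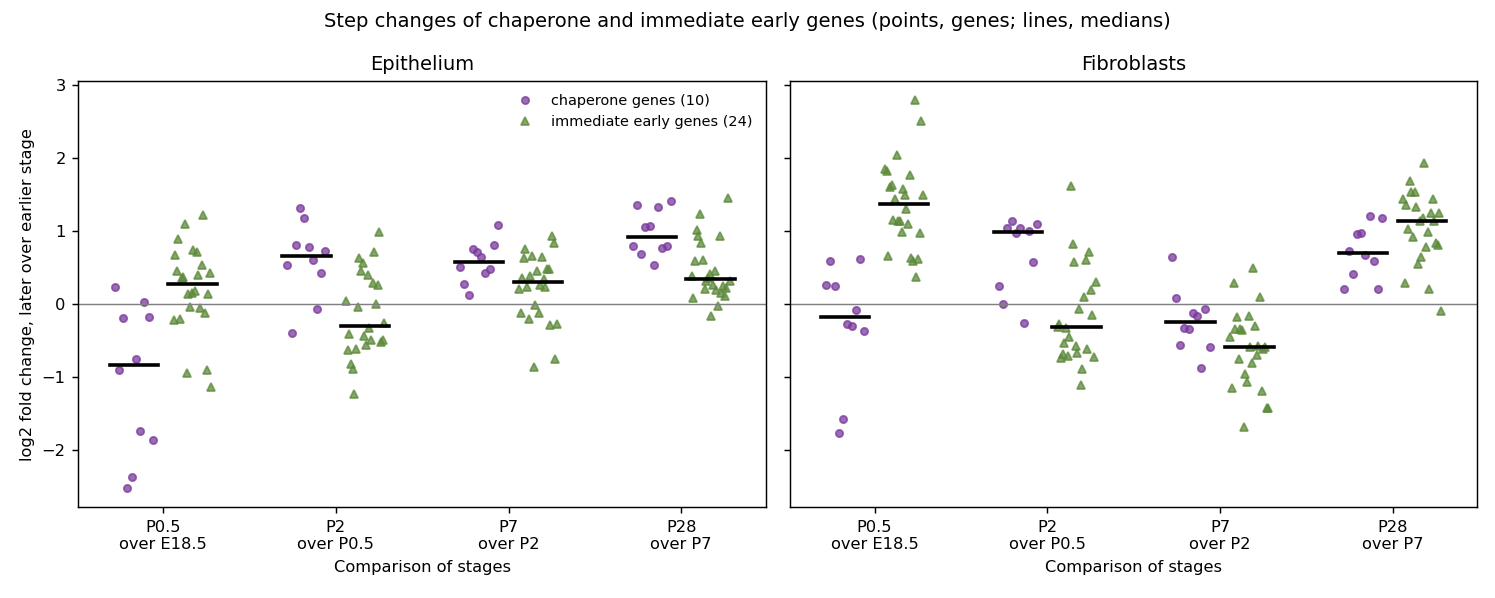
Log2 fold changes of the 10 chaperone genes and the 24 immediate early genes for each step between stages, in epithelium and fibroblasts, 1 point per gene with lines at the medians. Over the P0.5 over E18.5 step in fibroblasts the immediate early genes have a median of 1.37 and the chaperones -0.17.

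Markers of other cell types moved with some of these steps. In the epithelium the summed leukocyte list was 161 to 425 value units at E18.5, 182 to 218 at P0.5, 138 to 637 at P2, 0.560 to 5.04 at P7 and 1677 to 1738 at P28. From P7 to P28, 7 of 7 tested leukocyte genes and 4 of 10 chaperones rose there, where 4.87% of all genes were called higher. Ptprc itself, which encodes CD45, was at 0 in 4 of 10 epithelial libraries and reached at most 21.3 value units. The fibroblast list in the epithelial libraries summed to 2287 to 2364 value units at P28 against 156 to 168 at P7, of which Vim reached 2346, and Col1a1 was at most 21.4 in any epithelial library. The erythroid list summed to 4094 to 6173 value units in the epithelium at P0.5 against 799 to 2878 at E18.5. There 1 of 6 genes was higher, where 14.3% of all genes were called in either direction and 7.09% as lower. In fibroblasts it summed to 2739 to 3592 at P0.5 against 629 to 894 at E18.5, with 4 of 6 higher. Of all genes, 15.4% were called there in either direction and 7.34% as lower. Ciliated cell markers in the epithelium summed to 167 to 199 value units at P0.5 against 319 to 425 at E18.5. Of these, 3 of 4 tested were lower, where 7.09% of all genes were called lower. The mesothelial list, mostly Msln, summed to 200 to 247 in the epithelium at P0.5 against 429 to 444 at E18.5. Dividing cell markers in the epithelium summed to 80.1 to 81.7 value units at P7 and 69.1 to 117 at P28 against 7.29 to 14.5 at P2. Endothelial markers in the epithelium summed to 5.51 to 5.66 value units at P0.5 against 23.7 to 46.7 at E18.5, their highest. Most of this was Kdr, which was above 0 in all 10 epithelial libraries and reached 45.4, while Cdh5 was at 0 in 8 of 10. Smooth muscle and pericyte markers summed to at most 14.6 value units in epithelial libraries. In fibroblasts they summed to 194 to 236 value units at P2 against 93.8 to 112 at P0.5. In that step 6 of 10 chaperones rose, where 9.74% of all genes were called higher. The same markers summed to 73.5 to 102 at P28 against 176 to 186 at P7, the step in which 5 of 10 chaperones and 11.3% of all genes were called higher. Dividing cell markers in fibroblasts summed to 39.1 to 67.5 value units at P2 against 14.2 to 15.0 at P0.5, and to 13.96 to 25.4 at P28 against 129 to 141 at P7. In fibroblasts the leukocyte list summed to 36.6 to 124 value units at P28 against 0 to 3.41 at P7, and the erythroid list to 657 to 2876 at P28 against 93.7 to 181 at P7. The part of these cells in the chaperone changes was not tested.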

How the data were processed

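Deposited tables for 21 libraries, 1 per library, were used. The authors deposited a signal per gene, which behaves as a tag count divided by 1 factor per library. The submitters' processing notes list Bowtie2 2.2.5, the build mm10 and R 3.4.0. How that factor was set is not stated in them. In each library 100% of the deposited values were whole multiples of 1 constant, within 0.01 of a read, which gave whole reads and the depths stated. A floor of 3 reads corresponds to 0.403 to 1.37 value units and covers counting error only, since amplified tags carry no molecular identifiers.

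Stage comparisons within a cell type were fitted in R 4.3.3 by limma 3.58.1 to log2(value + 1), a scale that understates the change of low genes, with a spread that follows the mean (trend), for genes at 3 or more in at least 2 libraries (12143 in epithelium, 11954 in fibroblasts). All libraries of a cell type shared 1 estimate of the spread, tests were two-sided, and Benjamini-Hochberg adjustment ran over all genes tested, with a threshold of 0.05. The tables of the 2 cell types list different genes and may have been normalised separately. Comparisons between them therefore used recovered reads of shared genes in the 20 libraries of the 5 common stages. These were scaled by TMM to 1000000 reads (joint CPM), with 13386 genes tested. As the values were normalised, limma was the main test. The count test, edgeR 4.0.16 on recovered reads, called 2993 genes for P28 over E18.5 in epithelium, where limma called 3020, and 3887 in fibroblasts, where limma called 4020. DESeq2 1.42.0, other pseudocounts (0.5 and 5), no filter, TMM scaling, a replicate block, summed Hspa1a and Hspa1b, and leaving out each library were alternatives. Scripts were tested on simulated data.

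The members and the gene lists were chosen with earlier results of these data known. All 10 members are named. From each other list up to 2 genes with the smallest p among those past the threshold over the whole course are named, or, where none passed, those with the largest mean. Genes of like pattern were the 5 with the highest Pearson correlation, taken from genes averaging 50 or more. Sequences come from RefSeq, and gene positions from GENCODE on GRCm38. Epithelium at P56 was not analysed here.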

Additional observations from a re-analysis of the deposited data

Results flagged for a closer look

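The change of Hspb1 over birth differed between the cell types, which a test of the difference itself picked out. Epithelial Hspb1 had 1704 and 1627 joint CPM at P0.5 against 5715 and 5309.7 at E18.5, and fibroblast Hspb1 had 10018 and 10611 joint CPM at P0.5 against 14767 and 10578 at E18.5. The epithelial libraries were apart, while the fibroblast ranges overlapped on this scale. The interaction was -1.45 on the log2 scale (SE 0.29, limma adjusted p = 0.00863), and -1.21 (adjusted p = 0.0565) without fibroblast E18.5 replicate 2.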

How the results depend on the processing

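Alternatives moved counts of called members but reversed no call among the results counted here. These are the stage comparisons between replicated groups, the mean over stages, and the interactions over birth and the whole course. The calls between cell types at single stages and the interactions of the other steps were not put through the alternatives. Of 750 alternative values of the 51 called results, 644 kept the call, 106 lost it and none changed sign. Of 79 results that were not called, 26 (log2 differences of -0.45 to 0.45) changed sign under at least 1 alternative, past the threshold in none of them (lowest adjusted p 0.295). With no filter on low values 23 of the 51 calls were lost, and the members called were 4 for epithelial P0.5 over E18.5, 3 for epithelial P28 over P7, 0 for epithelial P2 over P0.5, 0 for fibroblast P0.5 over E18.5, 1 for fibroblast P2 over P0.5, 0 for fibroblast P7 over P2, 1 for fibroblast P28 over P7 and 3 for fibroblast P28 over E18.5; that fit tests more genes and had zero variances to offset. DESeq2 called 3 for fibroblast P28 over P7, edgeR and DESeq2 each called 1 for epithelial P7 over P2, and a pseudocount of 5 and DESeq2 each called 2 for the interaction over birth. Leaving out 1 library gave, in epithelium, 3 to 4 calls for P0.5 over E18.5, 0 to 1 for P2 over P0.5, 0 to 4 for P7 over P2, 1 to 6 for P28 over P7 and 5 to 6 for P28 over E18.5. In fibroblasts it gave 2 to 3, 1 to 3, 0 to 1, 1 to 4 and 3 to 8 for the same 5 comparisons. It gave 9 in every fit for the mean over stages, 0 to 3 for the interaction over birth and 0 to 1 for that over the whole course. The cause of these shifts was not tested. Over all genes tested, same-numbered replicates did not deviate together (correlations -0.06 to 0.10). Such a correlation cannot show whether same-numbered libraries share animals or a batch, so a pairing is neither shown nor excluded. With the replicate block all 51 calls held and 3 were added, with 6 members called for epithelial P28 over P7 and 7 for epithelial P28 over E18.5. Members had 25 or more reads in every library, and between replicates the chi-square of the counts over its degrees of freedom was 4.64 to 10.6, above counting error alone; how far depth limits the calls was not tested.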
